A study of Mus musculus with 32 samples.

Results

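The gastrocnemius, a mixed but mostly fast muscle of the calf, was compared 7 days after a complete spinal cord injury (SCI) with muscle taken 7 days after sham surgery, both from young male mice given vehicle. The comparison rests on 10 of the 32 libraries of the series, chosen by their titles. They are 6 libraries labelled 7 days, SCI, Vehicle and 4 labelled 7 days, Sham, Vehicle. No genotype or strain is given. The remaining 22 libraries, from other treatments and times, entered the filter on counts, the scaling of libraries and the estimate of spread. They are in neither of the groups compared. Of 55487 genes in the count table, 14955 had enough counts to be tested, and all of these are the subject here. The labels do not say how the injury was made, how the vehicle was given or whether each library is a separate animal, so p-values measure the spread between libraries. Those of single genes take it from all 32 libraries, and those of shares of counts from the 10.

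A cord injury above the segments that hold the motor neurons of a muscle removes descending drive without cutting its nerve, so the muscle loses activity but not its synapses. Muscle that loses its nerve or its activity is known to bring back embryonic features, among them acetylcholine receptors outside the synapse, through histone deacetylases and myogenic transcription factors. It also breaks down its proteins through the ubiquitin-proteasome and autophagy pathways, which forkhead and NF-kappaB transcription factors control, and lowers its oxidative enzymes.

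Total counts ran from 9980885 to 12864837 per library in sham and from 9935424 to 13040986 in SCI, and levels are given as CPM, the count of a gene relative to the size of its library, after edgeR's trimmed-mean composition scaling (TMM) unless totals are named. As a check of the labelled tissue, 8 markers of skeletal muscle summed to between 163052 and 223240 CPM in sham and between 65815 and 140325 in SCI. In whole muscle, fewer cells of a type and less RNA per cell cannot be told apart. The 10 most counted genes took 27% ± 1.6 of counts in sham (SD, n = 4, range 25.1 to 28.7) and 18.7% ± 3.84 in SCI (n = 6, 14 to 23.5), and the groups did not overlap. A two-sided exact permutation test over the 10 libraries gave p = 0.00952, the smallest that its 210 splits allow. The 13 protein-coding transcripts of the mitochondrial genome together fell in the same way, from 6.56% ± 0.905 to 4.74% ± 0.215 of counts (exact p = 0.00952). Ribosomal RNA genes took between 0.173% and 0.226% of counts in SCI but 0.290%, 1.10%, 0.635% and 0.329% in sham libraries 1 to 4, and with these genes left out of the library totals 7062 genes were called higher and 1385 lower, against 7107 and 1363 with them. Sham library 2 also stood apart in nerve and slow fibre transcripts, as described with those genes.

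**Figure D1:**
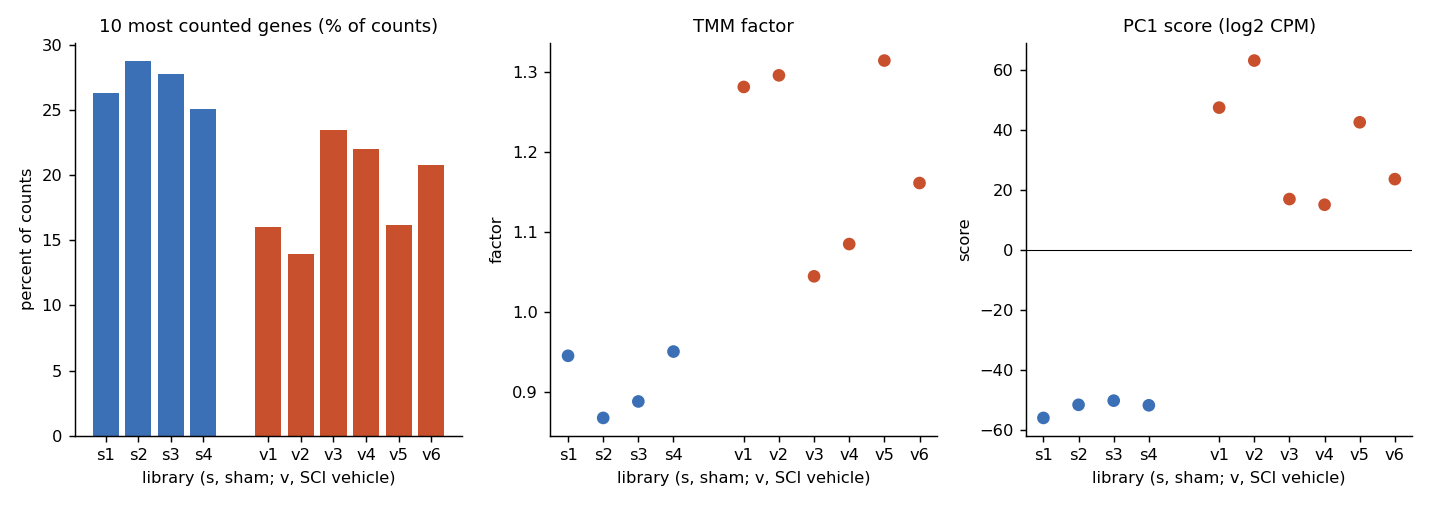
Share of counts in the 10 most counted genes (left, percent), TMM scaling factor (middle) and score on the first principal component of log2 CPM over these 10 libraries (right) for each library; s marks sham and v SCI vehicle, numbered as replicates. SCI libraries 1, 2 and 5 have the lowest shares, the highest factors and the highest scores.

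A share lost by a few transcripts is spread over all others when libraries are compared by their totals, so the scaling decides where no change lies. TMM factors were 0.867 to 0.950 in sham and 1.04 to 1.31 in SCI. With TMM, edgeR called 3218 genes higher, 21.5% of those tested, and 3451 lower, 23.1%, together 44.6%, at an adjusted p under 0.05. Of these, 753 (5.04%) were higher and 1027 (6.87%) lower by more than 2-fold. With library totals and no composition scaling it called 7107 higher (47.5%) and 1363 lower (9.11%), 56.6% together, with 1828 (12.2%) and 480 (3.21%) beyond 2-fold. The median log2 fold change of all genes was -0.02 with TMM and 0.37 with totals, and 48.1% and 73.8% of genes lay above 0. All 3218 rises and 1363 of the falls were called in the same direction under both scalings. A further 2037 genes were called lower with TMM and not called with totals, and 3838 were called higher with totals alone. Totals moved log2 fold changes up by a median of 0.39, so asking for both calls screened the falls and not the rises. Neither scaling measures RNA per muscle, so a single gene is given below as rising or falling without a scaling named only where both called it. In counts of list members, rises and falls are calls with TMM unless totals are named. Where a scaling matters both values stand side by side. Values in brackets after a gene are its log2 fold change with TMM, SCI over sham, ± its standard error (n = 6 and 4), and in lists of sham values libraries 1 to 4 stand in order. Counts of called members in a gene list are to be read against the shares of all genes given above for the same scaling.

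**Figure D2:**
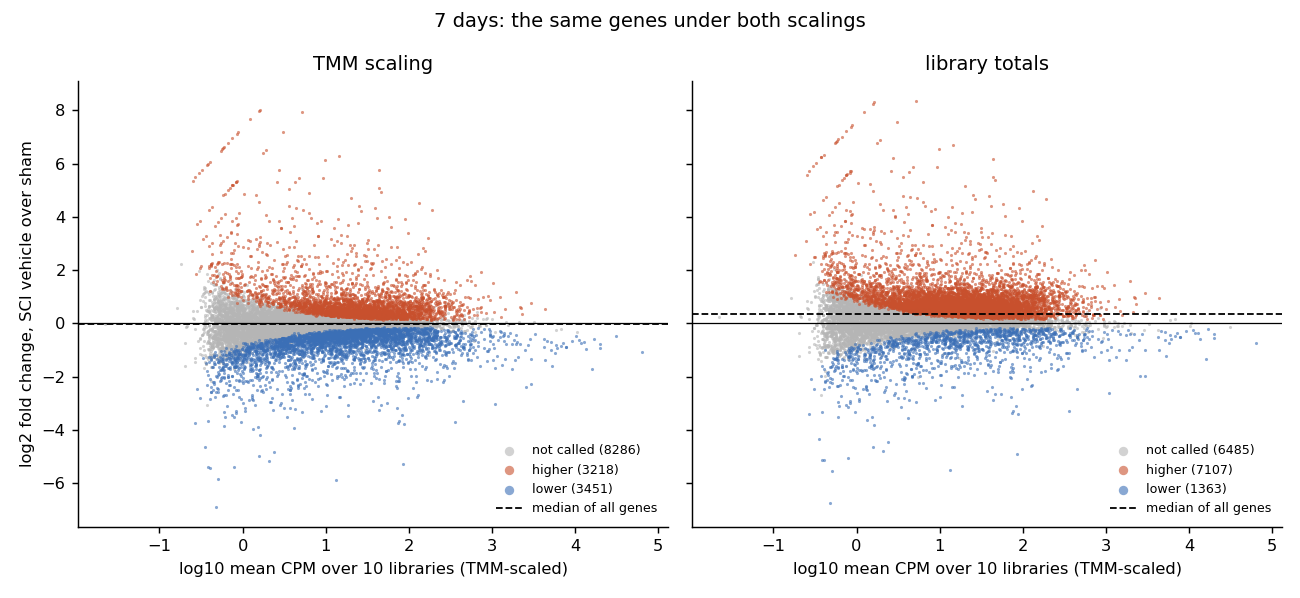
Log2 fold change of SCI vehicle over sham (y) against log10 mean CPM (x) for 14955 genes with TMM scaling (left) and library totals (right); colours mark genes called higher, lower or not called by edgeR, and the dashed line is the median of all genes. With totals the cloud sits 0.39 higher, and the most counted genes stay below 0 in both panels.

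Only 51 genes (0.341%) changed sign with a call on both sides, lower with TMM and higher with totals, and none went the other way. Among the most counted of them were Pink1, a kinase of mitochondrial quality control (-0.18 and 0.20) and Cnbp, a nucleic acid-binding zinc finger protein (-0.22 and 0.16). None of the 51 moved by more than 0.23 with TMM or 0.24 with totals on the log2 scale. The TMM calls of Pink1 and Cnbp each ended without any of 6 of the 10 libraries.

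Of the 10 most counted transcripts, all but Atp2a1 fell with either scaling. Myh4, the heavy chain of the fastest fibres, took 8.12%, 10.2%, 8.29% and 6.90% of all counts in sham libraries 1 to 4 and from 2.84% to 7.17% in SCI, with a log2 fold change of -1.09 ± 0.23 with TMM and -0.74 with totals. On shares of all counts, its highest SCI library, number 3, lay above the lowest sham library. Acta1, the actin of adult sarcomeres, fell further (-1.72 ± 0.16, -1.35 with totals), from 24563, 29183, 30859.8 and 24945 CPM in sham to between 6773 and 10544 CPM, median 7988, in SCI, and the highest SCI library stood below the lowest sham library. Ckm, the muscle creatine kinase (-0.77 ± 0.15), Tnnt3, fast troponin T (-0.57 ± 0.11), Tpm1, tropomyosin (-0.96 ± 0.18), Aldoa, a glycolytic aldolase (-0.72 ± 0.14), and Ttn, the giant spring titin (-0.62 ± 0.15), fell under both scalings, as did the mitochondrially encoded mt-Co1 (-0.92 ± 0.11). Atp2a1, the calcium pump of the sarcoplasmic reticulum, was lower (-0.49) with TMM and uncalled with totals (-0.13, adjusted p = 0.339 by edgeR). A930016O22Rik, the last of the 10, overlaps Ckm on the opposite strand, and the libraries keep no strand, so their reads were not separable.

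Genes were grouped by their mean CPM over the 10 libraries, leaving out predicted, unnamed, antisense and pseudogene symbols, and counted where they were called in 1 direction under both scalings with no overlap between groups. Over all 14955 genes 2051 (13.7%) rose and 678 (4.53%) fell by this measure, which keeps fewer falls than TMM alone because falls, not rises, lose their call with totals. At or above 500 CPM, 27 of 167 genes rose (16.2%) and 43 fell (25.7%), against 74 falls without overlap with TMM alone. The largest fall was that of Eno3, the muscle enolase of glycolysis. Its CPM was 5915, 5950.4, 5686 and 4645 in sham and between 431 and 2466 CPM, median 788, in SCI, a log2 fold change of -2.29 ± 0.31 (adjusted p = 4.1e-07 by edgeR), with SCI libraries 3 and 4 nearest to sham. Ldha, which turns pyruvate into lactate (-1.71 ± 0.25), Amd1, which makes the aminopropyl donor of polyamine synthesis (-1.68 ± 0.35), and Jph2, a junctophilin that ties the transverse tubule to the sarcoplasmic reticulum (-1.61 ± 0.20), followed. The largest rise was that of Mknk2, a kinase that phosphorylates the cap-binding protein eIF4E. It stood at 199, 279, 299 and 303 CPM in sham and between 589.6 and 1603 CPM, median 984, in SCI (1.95 ± 0.19, adjusted p = 7.6e-10 by edgeR), and the lowest SCI library was well above the highest sham library. Trim63 and Fbxo32, the muscle ubiquitin ligases MuRF1 and atrogin-1, Cacng1, the gamma subunit of the muscle calcium channel (1.59 ± 0.16), and Psmd2, a proteasome subunit (1.45 ± 0.12), were the next.

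Between 50 and 500 CPM, 677 of 2350 genes rose (28.8%) and 195 fell (8.3%), against 552 falls without overlap with TMM alone. Cpne2, a copine that binds membranes when calcium is present, had the largest rise. Its CPM was 7.74, 9.7, 11.3 and 8.44 in sham and between 112 and 359.8 CPM, median 208, in SCI, a log2 fold change of 4.51 ± 0.37 (adjusted p = 1.9e-11 by edgeR). Rrad, a small GTPase that restrains voltage-gated calcium channels, was at 4.45, 1.6, 8.76 and 7.44 CPM in sham and between 26.4 and 232 CPM, median 73.2, in SCI (4.00 ± 0.57), and Sik1, a salt-inducible kinase of class II histone deacetylases, at 6.26, 8.78, 7.53 and 9.07 and between 60.8 and 183 CPM, median 82.5 (3.61 ± 0.26). For all 3, every SCI library stood above every sham library, with SCI library 2 the highest and libraries 3 and 4 the lowest. The falls were led by Actc1, the cardiac actin (-5.30 ± 0.48), Perm1, a regulator of mitochondrial genes in muscle (-3.77 ± 0.24), Ckmt2, mitochondrial creatine kinase (-3.69 ± 0.22), Lynx1, described with the receptors, and Mlf1. Mlf1, a protein also called myeloid leukaemia factor, stood at 185, 177, 199 and 156 CPM in sham and between 9.72 and 31.1 CPM, median 11.2, in SCI (-3.44 ± 0.25, adjusted p = 2.2e-12 by edgeR). Rrad, Ckmt2, Gadd45a and Nfkb2 overlap annotated genes on the opposite strand.

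Between 5 and 50 CPM, 962 of 6359 genes rose (15.1%) and 216 fell (3.4%), against 840 falls without overlap with TMM alone. The largest rises were those of Cd101, a surface protein of the immunoglobulin family (7.94 ± 0.90), Krt18, a keratin (6.30 ± 0.65), Ces2c, a carboxylesterase (6.12 ± 0.54), Sln, the calcium pump inhibitor sarcolipin (5.78 ± 0.55), and Ggt6, a gamma-glutamyltransferase (5.45 ± 0.59). Cd101 held 748 counts over the SCI libraries and 1 over the sham libraries, a ratio per total counts of 479 with a 95% exact interval of 85.7 to 18933 for counting error. Scd1, the desaturase that makes oleate, fell from 200.3, 87.7, 40.1 and 52.6 CPM in sham to between 5.81 and 12.6 CPM, median 10.4, in SCI (-3.26 ± 0.63). Ramp1, which with its partner receptor binds the nerve peptide CGRP, fell from 19.2, 19.2, 18.7 and 27.7 to between 1.48 and 3.6 CPM, median 2.57 (-3.12 ± 0.26), and Pcp4l1, a small relative of a calmodulin-binding protein, from 42.2, 19.4, 40.7 and 55.4 to between 3.6 and 6.49 CPM, median 4.69 (-3.05 ± 0.29). No SCI library of these 3 reached the lowest sham library. Ostn, a secreted peptide of muscle and bone (-3.46 ± 0.28), and Bdh1, an enzyme of ketone use (-5.88 ± 0.49), were the other 2 leading falls, and both overlap genes on the opposite strand.

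Receptors for acetylcholine rose except in the adult subunit. The muscle receptor is a pentamer in which the gamma subunit of fetal and denervated muscle gives way to epsilon at the mature synapse, and its genes carry E-boxes, CANNTG sequences that myogenic factors such as myogenin bind. Of 5 subunit genes 4 rose under both scalings (80% against 21.5% of all genes) and 0 fell. The 150 bases before the RefSeq start (GRCm38.p6) of the 4 subunits with a listed promoter are shown 5′ to 3′ on the gene's strand because they are the region these E-boxes are known from; capitals mark each match to the E-box forms CAGCTG and, on either strand, CACCTG.
Chrna1, chr2:73580339-73580488, minus strand: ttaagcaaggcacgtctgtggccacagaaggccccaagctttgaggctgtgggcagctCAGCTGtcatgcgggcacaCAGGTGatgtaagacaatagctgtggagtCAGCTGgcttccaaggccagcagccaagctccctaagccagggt
Chrnb1, chr11:69795938-69796087, minus strand: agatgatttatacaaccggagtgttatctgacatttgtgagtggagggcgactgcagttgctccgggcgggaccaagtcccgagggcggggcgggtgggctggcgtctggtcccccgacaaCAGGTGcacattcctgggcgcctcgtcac
Chrng, chr1:87205661-87205810, plus strand: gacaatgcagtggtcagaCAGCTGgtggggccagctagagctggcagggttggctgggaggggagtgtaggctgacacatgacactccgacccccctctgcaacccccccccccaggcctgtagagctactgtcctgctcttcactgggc
Chrne, chr11:70619195-70619344, minus strand: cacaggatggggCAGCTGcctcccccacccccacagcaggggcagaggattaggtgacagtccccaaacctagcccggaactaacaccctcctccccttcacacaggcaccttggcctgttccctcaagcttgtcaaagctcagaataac
Searched on both strands in windows from 250 bases before to 50 after the start, CAGCTG (a palindrome) or CACCTG was in all 4 of these windows and in 32.9% of 32851 RefSeq promoters. Chrna1 held 3 matches, and 1.39% of all promoters held 3 or more; Chrng held 2, and Chrnb1 and Chrne 1 each, so the subunit that did not rise has one as well.

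Chrna1, the alpha subunit, stood at 15.1, 7.07, 20.2 and 17.8 CPM in sham and between 68.7 and 185 CPM, median 99.7, in SCI, a log2 fold change of 2.87 ± 0.27 with TMM and 3.29 with totals (adjusted p = 2.6e-10 by edgeR). Sham library 2 was the lowest, SCI library 2 the highest, and the groups did not overlap. Chrnb1, the beta subunit, rose by 1.84 ± 0.14, and Chrnd, the delta subunit, from 2.86, 0.913, 2.36 and 2.45 to between 5.36 and 13 CPM, median 9.52 (2.05 ± 0.33). The fetal subunit Chrng had 1 count over the 4 sham libraries and 83 over the 6 SCI libraries, at 0.22 to 1.81 CPM. Per total counts that is a ratio of 53.1 with a 95% exact interval of 9.27 to 2123, which covers counting error only. Chrne, the adult epsilon subunit, was at 25, 12.4, 20.8 and 16.2 CPM in sham and between 9.87 and 26.5 CPM, median 17, in SCI, with overlapping groups and no call (-0.11 ± 0.20, adjusted p = 0.675 by edgeR, 0.24 with totals).

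Genes that build the synapse did not move as a block. Of 13, 3 rose and 6 fell with TMM, or 4 and 2 with totals, with a median of -0.48 and -0.10 against -0.02 and 0.37 over all genes. Without sham library 1 the median was -0.30 with TMM. Colq, the collagen tail that anchors acetylcholinesterase, rose from 8.38, 6.84, 10.1 and 10.8 CPM to between 15.5 and 85.5 CPM, median 42 (2.34 ± 0.38), and SCI libraries 1, 2 and 5 were at least 58.6 while 3, 4 and 6 were at most 25.5. Musk, the receptor kinase that clusters receptors, rose from 15.3, 21.8, 27.6 and 21.4 to between 46.4 and 64.3 CPM, median 53.5 (1.33 ± 0.18), and Rapsn, its clustering partner rapsyn, by 0.63 ± 0.14. Ache, the esterase itself, fell from 45.9, 32.5, 46.3 and 34.2 to between 12.6 and 22.1 CPM, median 18.7 (-1.17 ± 0.17, -0.79 with totals). Lynx1, a prototoxin that binds and damps nicotinic receptors, fell from 169, 150.5, 171 and 185 to between 8.92 and 20.1 CPM, median 11.8 (-3.67 ± 0.18, adjusted p = 9.3e-16 by edgeR), the lowest sham library lying far above the highest SCI library. Dok7 (-0.63), Lrp4 (-0.50), Utrn (-0.48) and Etv5 (-0.74), which respectively activate Musk, bind agrin, line the postsynaptic membrane and switch on synaptic genes, were called lower only with TMM. Leaving out sham library 1 ended the calls of Utrn and Etv5 (adjusted p = 0.0919 and 0.128), and leaving out sham library 4 or SCI library 2 or 3 ended that of Lrp4 (0.124, 0.067 and 0.0531).

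The regulators of the denervation programme had the highest median of the lists described here, with 12 of 16 higher and 2 lower under both scalings and medians of 2.07 and 2.49. Hdac4, the deacetylase that carries the loss of nerve activity to the nucleus, stood at 38.5, 45.6, 53.2 and 45.3 CPM in sham and between 135 and 227 CPM, median 161, in SCI (1.87 ± 0.15, adjusted p = 1.1e-11 by edgeR). Hdac9 and Dach2, repressors known to fall after denervation, went the other way. Hdac9 fell from 8.48, 7.19, 8.93 and 11.6 CPM to between 0.645 and 2.69 CPM, median 2.03 (-2.36 ± 0.35), and Dach2 from 3.71, 1.94, 5.25 and 4.17 to between 0 and 1.35 CPM, median 0.571 (-2.47 ± 0.43), without overlap in either. Myog, the myogenic factor they act on, rose from 3.08, 3.19, 3.77 and 2.54 to between 5.16 and 9.74 CPM, median 8.57 (1.33 ± 0.32), and Myf6, the factor of adult fibres, from 64.7, 72.1, 77 and 61 to between 178 and 406 CPM, median 226 (1.86 ± 0.17). Myod1 rose by 1.00 ± 0.24.

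Runx1, a transcription factor that limits wasting of denervated fibres, stood at 2.33, 2.4, 2.54 and 1.81 CPM in sham and between 22.9 and 87.7 CPM, median 36.4, in SCI (4.23 ± 0.38, adjusted p = 1.8e-10 by edgeR), the lowest SCI library being far above the highest of sham. Gadd45a, a growth arrest gene downstream of Hdac4, rose by 4.26 ± 0.32, Cdkn1a, a cell cycle inhibitor, by 2.28 ± 0.34, and Sox4 by 2.83 ± 0.31. Kcnn3, a calcium-activated potassium channel, rose from 2.54, 0.342, 2.28 and 1.27 to between 8.59 and 32.9 CPM, median 20.3 (3.59 ± 0.38). Ncam1, an adhesion molecule of synapse and regenerating fibre, rose by 1.64 ± 0.24 and Ankrd1, a stretch-responsive ankyrin repeat protein, by 2.58 ± 0.46. Runx1 and Gadd45a overlap genes on the opposite strand.

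**Figure D3:**
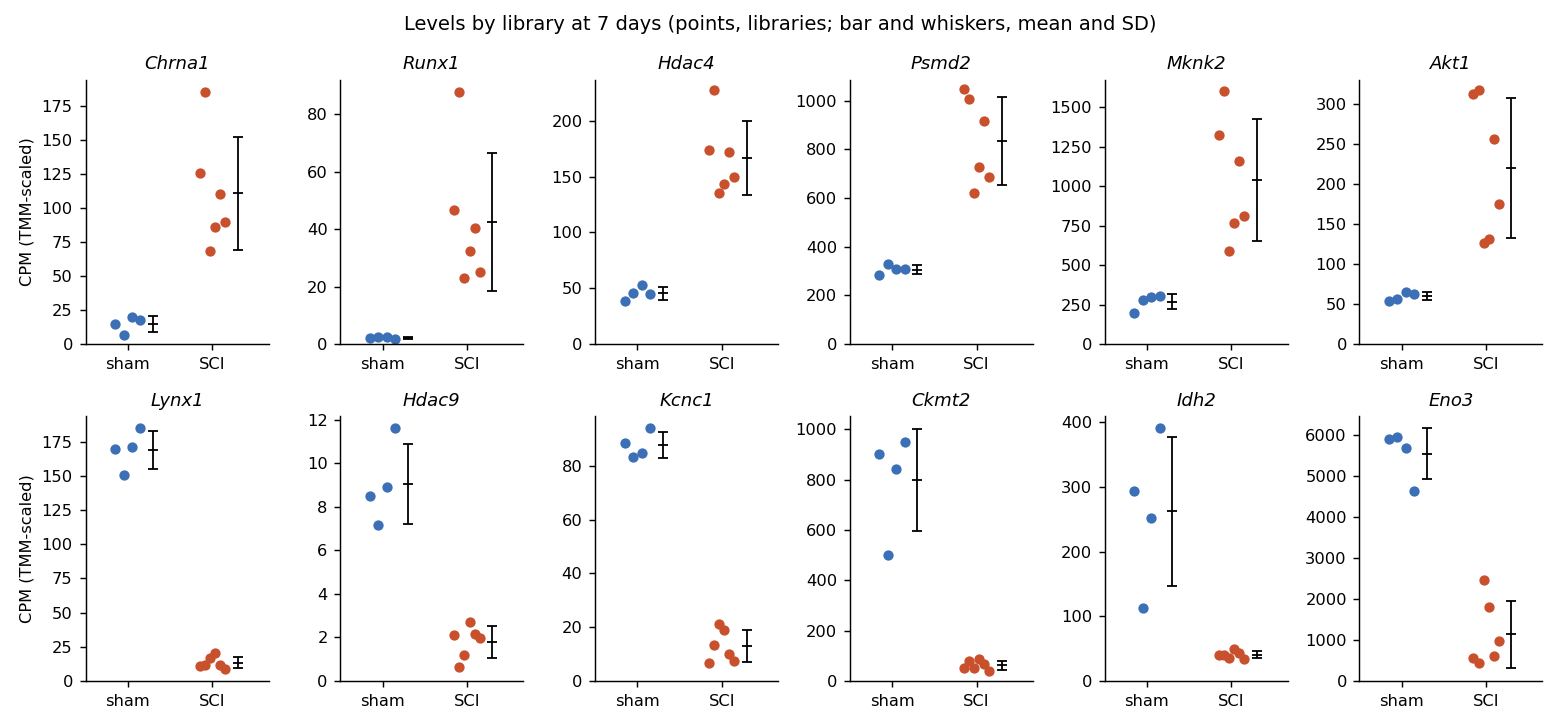
CPM of 12 genes in every library, sham on the left and SCI vehicle on the right of each panel, with the mean and SD beside the points; each y axis starts at 0. Upper row, genes that rose; lower row, genes that fell; groups do not overlap in any panel.

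Fusion and myogenic genes had 6 of 11 members higher and 2 lower (7 and 0 with totals). Mymx, the micropeptide that opens the fusion pore of myoblasts, was at 0.318, 0, 0.35 and 0 CPM in sham and between 0.766 and 11.4 CPM, median 5.77, in SCI (5.05 ± 0.98), and Cdh15, the cadherin of satellite cells and myoblasts, rose by 1.22 ± 0.15. Pax7, which defines satellite cells, was not called (-0.46 ± 0.24, adjusted p = 0.124 by edgeR) except without SCI library 6 (adjusted p = 0.0392). The 7 tested satellite cell markers summed to between 48.5 and 58.1 CPM in sham and between 84.1 and 123 in SCI, and 3 of them, Myf5, Cdh15 and Sdc4, rose, while 1, Chodl, was lower with TMM (-0.61 ± 0.20) and uncalled with totals (-0.21) and 3 were not called (list medians of 0.14 and 0.54). Leaving out either sham library 2 or sham library 3 made Chodl uncalled with TMM as well (edgeR adjusted p = 0.0518 and 0.103).

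Of the NF-kappaB genes 14 of 18 rose with TMM and all 18 with totals, with 0 falls and medians of 0.85 and 1.27. NF-kappaB subunits are held by inhibitor proteins until kinases release them, through a canonical arm (Rela, Nfkb1) or an alternative arm (Relb, Nfkb2) that the kinase NIK, encoded by Map3k14, opens. Both genes of the alternative arm and its kinase rose by more than 2 on the log2 scale. Nfkb2 stood at 13.8, 9.01, 19.1 and 15.2 CPM in sham and between 74.7 and 232 CPM, median 154, in SCI (3.40 ± 0.31, adjusted p = 1.6e-10 by edgeR), Relb at 11.7, 10.8, 11 and 11.2 and between 28.4 and 78.1 CPM, median 53.4 (2.23 ± 0.25), and Map3k14 at 8.91, 6.84, 6.13 and 7.62 and between 17 and 71.6 CPM, median 41.7 (2.56 ± 0.36). In each of the 3 the SCI libraries were above sham, with libraries 1, 2 and 5 the highest. Nfkbie, an inhibitor protein, rose by 3.67 ± 0.63, the most of the list, and Birc3, a ligase that restrains NIK, by 2.64 ± 0.36. Of the canonical pair, Rela rose by 0.44 ± 0.13, and Nfkb1 was not called with TMM (0.01 ± 0.10) but was with totals (0.41).

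In the insulin-like growth factor pathway 8 of 27 genes rose and 9 fell (15 and 3 with totals). Over all genes 21.5% were higher and 23.1% lower with TMM, and 47.5% and 9.11% with totals. The list medians of 0.02 and 0.40 were near the -0.02 and 0.37 of all genes. Akt1, the kinase that relays growth signals, stood at 54.4, 56.7, 65 and 63.3 CPM in sham and between 127 and 317 CPM, median 215, in SCI (1.88 ± 0.20, adjusted p = 5.3e-09 by edgeR), and Akt2, the isoform of insulin action, rose by 0.68 ± 0.07. Foxo1, the forkhead factor that Akt restrains, rose from 17.1, 16.1, 16.2 and 17.5 to between 44.9 and 91.1 CPM, median 62.6 (1.96 ± 0.31), and Pik3r1, the regulatory subunit of the lipid kinase, by 1.30 ± 0.16. Upstream, the docking proteins of the receptor were lower, Irs1 from 122, 75.9, 70.1 and 66.8 to between 30.2 and 47.2 CPM, median 37.5 (-1.13 ± 0.19, -0.76 with totals) and Irs2 with TMM alone (-0.72 ± 0.16, -0.34 with totals). Igf1 itself was called lower (-0.73 ± 0.24), but not when sham library 1 was left out (adjusted p = 0.234) or with totals (-0.35). Foxo3 was not called with TMM (0.14 ± 0.13, adjusted p = 0.412 by edgeR) and was called higher with totals (0.53, adjusted p = 0.00148).

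In myostatin, activin and bone morphogenetic protein signalling 7 of 25 genes rose and 6 fell (9 and 4 with totals), shares with TMM near the 21.5% and 23.1% of all genes. Mstn, the muscle's own brake on growth, was not called (63.8, 115, 85.1 and 60.3 CPM in sham, between 36.4 and 128 CPM, median 88.1, in SCI, 0.07 ± 0.23, adjusted p = 0.844 by edgeR), and its groups overlapped. Its receptors parted, Acvr2a rising by 0.98 ± 0.11 and Acvr2b falling (-1.30 ± 0.37), while Tgfbr1 rose by 1.47 ± 0.16 and the signal carrier Smad3 by 0.77 ± 0.13. Fst, the extracellular trap follistatin, rose by 1.23 ± 0.33. Gdf5, a bone morphogenetic protein known to protect denervated muscle from loss of mass, rose from 0.106, 0, 0.0876 and 0.181 CPM to between 2.06 and 10.3 CPM, median 3.19 (5.31 ± 0.82).

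Ubiquitin ligases of atrophy were called in both directions, 5 of 17 higher and 5 lower with TMM and 12 and 2 with totals. Over all genes 21.5% were higher and 23.1% lower with TMM, and 47.5% and 9.11% with totals. The list medians of 0.08 and 0.46 were near those of all genes. Trim63 stood at 184, 304, 199.6 and 191 CPM in sham and between 541 and 1394 CPM, median 624, in SCI (1.78 ± 0.24), and Fbxo32 at 248, 691, 578 and 433 and between 1076 and 2098 CPM, median 1307 (1.50 ± 0.24). The groups did not overlap, sham library 2 was the highest of sham in both and SCI library 2 the highest of SCI. Fbxo30, a ligase of the bone morphogenetic protein axis, rose by 1.30 ± 0.21. Trim55 (MuRF2) fell (-0.88 ± 0.07) and Fbxo40, which marks Irs1 for destruction (-0.87 ± 0.13), under both scalings. The other 3 falls with TMM were not called with totals, and the count of falls was 3 without sham library 2 or SCI library 2, 3 or 5.

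The kelch and ankyrin repeat adaptors, which bring muscle proteins to cullin ligases, fell. Of 23, 18 were lower and 1 higher with TMM and 15 and 3 with totals, with medians of -0.91 and -0.53. Asb18 fell from 32.3, 27.6, 27.8 and 34.1 CPM to between 2.47 and 7.14 CPM, median 4.7 (-2.76 ± 0.25, adjusted p = 1.7e-10 by edgeR), and Kbtbd13, which when mutated causes a rod myopathy, from 20.9, 17.8, 24.1 and 20.1 to between 1.28 and 5.43 CPM, median 3.63 (-2.67 ± 0.27). Every SCI library lay below every sham library in both. Klhl34 (-2.12 ± 0.33) and Klhl33 (-1.72 ± 0.23) fell as well, the groups of Klhl34 overlapping through sham library 2. Klhl38 was the member that rose (1.04 ± 0.24), from 26.2, 49.2, 45.7 and 36.7 to between 64.8 and 105 CPM, median 78.9.

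All 14 genes of the catalytic core of the proteasome and all 18 of its regulatory cap were higher under both scalings, with medians of 0.88 and 0.80 with TMM. Psmd2 of the cap stood at 283, 327, 308 and 307 CPM in sham and between 619.6 and 1047 CPM, median 822, in SCI, and Psma7 of the core at 63.1, 75.6, 74.7 and 74.4 and between 142 and 249 CPM, median 203 (1.45 ± 0.13), without overlap. Of 15 genes of activators, assembly, immunoproteasome and regulation 8 were higher and 1 lower with TMM (9 and 0 with totals). Nfe2l1, the transcription factor known to raise proteasome genes when degradation is short, rose by 1.00 ± 0.15, and the assembly factors Pomp and Psmg4 by 0.99 ± 0.10 and 1.21 ± 0.18. The subunits of the immunoproteasome, which interferon induces, did not follow: Psmb8 and Psmb9 were not called (-0.05 ± 0.27 and -0.29 ± 0.28), and Psmb10 fell (-0.67 ± 0.16) with TMM and was uncalled with totals (-0.28). The core of the antioxidant response element that Nfe2l1 binds, TGACNNNGC, was on either strand of 5 of 28 RefSeq promoters of core and cap genes (17.9%) and of 12.4% of all promoters.

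Of autophagy and lysosome genes 12 of 22 rose and 3 fell with TMM (17 and 3 with totals). Map1lc3a, the membrane tag of the autophagosome, rose by 1.61 ± 0.09, Ctsl, a lysosomal protease that forkhead factors induce, by 1.46 ± 0.13, Atg7, which loads the tags, by 0.95 ± 0.12 and Sqstm1, the cargo receptor p62, by 0.90 ± 0.14. Ulk2, a starting kinase, fell (-0.81 ± 0.11), as did Tfeb (-0.66) and Ctsb (-0.64). Without SCI library 2 the falls numbered 5.

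Of 46 large and 33 small subunit ribosomal proteins, 43 and 31 were higher with TMM and 45 and 32 with totals, with medians of 0.58 and 0.61. Rpl3l, the striated muscle form of Rpl3, was the single fall. Rpl3 stood at 41.7, 32.3, 37.8 and 34.3 CPM in sham and between 157 and 362 CPM, median 232, in SCI (2.71 ± 0.20), and Rpl3l at 492, 482, 486 and 480.5 and between 71.6 and 261 CPM, median 121 (-1.69 ± 0.22). Counted per exonic base, Rpl3 made up 3.75% ± 0.369 of the pair in sham (n = 4) and 46.9% ± 18.8 in SCI (n = 6), at 58.1%, 72.4%, 23.7%, 28.0%, 56.4% and 43.1% in SCI libraries 1 to 6. The lowest SCI value was far above the highest sham value of 4.20% (exact p = 0.00952, 0.0286 adjusted over 6 such shares). The pair was chosen with earlier results of these data known, and these p-values do not allow for that choice. Lengths are the union of annotated exons and Rpl3 has near-identical copies in the genome and a neighbour on the opposite strand, so the share is approximate. Ribosome biogenesis genes rose in 25 of 28 with TMM and 28 with totals. Myc, which drives them, went from 2.54, 1.6, 1.66 and 3.99 CPM to between 11.8 and 34.3 CPM, median 19.5 (3.10 ± 0.31), and Nhp2, Wdr43 and Nop14, which process ribosomal RNA, rose by 1.20 ± 0.16, 1.16 ± 0.12 and 1.14 ± 0.10.

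Translation factors rose in 20 of 29 and fell in 2 (27 and 1 with totals). A second paralogue pair shifted: Eef1a1, the elongation factor of most tissues, rose by 1.27 ± 0.18, while its muscle form Eef1a2 was lower (-0.48) with TMM and uncalled with totals (-0.10). Per exonic base Eef1a1 made up 7.82% ± 1.01 of the pair in sham and 22.3% ± 4.77 in SCI, without overlap (exact p = 0.00952, adjusted 0.0286). This pair too was chosen with earlier results known, which its p-values do not allow for. Eif4a1, the helicase of initiation, rose by 1.45 ± 0.13, and Eif4ebp1, which blocks the cap-binding protein, by 1.34 ± 0.17. Eif4e, the cap-binding protein itself, fell from 90.9, 90.8, 99.1 and 94.5 CPM to between 47.2 and 65.3 CPM, median 51.3 (-0.81 ± 0.07), and Eef2k, which halts elongation, rose by 1.27 ± 0.13. Among 20 transfer RNA synthetases 11 rose and 1 fell (19 and 0 with totals), and Vars, for valine, stood apart at 38.9, 50.9, 43.6 and 48.4 in sham and between 123 and 206 CPM, median 170.4, in SCI (1.89 ± 0.15), the next largest being 0.77 ± 0.09 for Dars. Of 54 mitochondrial ribosomal proteins 12 rose and 16 fell with TMM but 34 and 1 with totals, with medians of -0.01 and 0.38 close to the -0.02 and 0.37 of all genes.

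**Figure D4:**
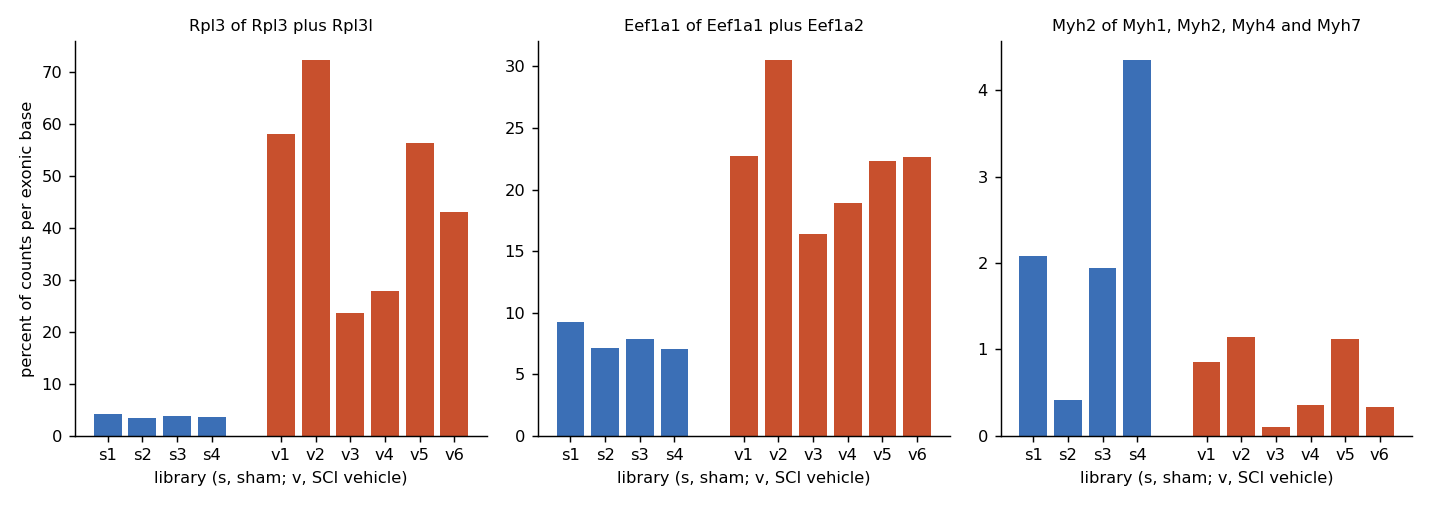
Share of counts per exonic base, in percent, taken by Rpl3 of Rpl3 plus Rpl3l, by Eef1a1 of Eef1a1 plus Eef1a2 and by Myh2 of 4 adult myosin heavy chains, for each library; s marks sham and v SCI vehicle. The Rpl3 and Eef1a1 shares are higher in all 6 SCI libraries than in any sham library, and those of Myh2 overlap.

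Chaperones of the cytosol rose in the main, with 17 of 27 heat shock genes higher and 4 lower (19 and 3 with totals). Hsp90ab1, a constitutive HSP90, rose from 952, 1106, 1235 and 1115 CPM to between 2055 and 3277 CPM, median 2392 (1.17 ± 0.12), and Cct2, of the chaperonin that folds actin and tubulin, by 1.02 ± 0.10. The muscle chaperone partners Smyd1, a methyltransferase of myosin assembly (-1.18 ± 0.13), and Dnajb5 (-1.50 ± 0.17) fell. The stress-induced Hspa1a and Hspa1b were not called (-0.49 ± 0.61 and -0.74 ± 0.66).

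Oxidative phosphorylation fell across its complexes. Of 36 nuclear genes of complex I 33 were lower with TMM and 17 with totals, and of 42 in complexes II to V 39 and 22, while 0 rose with TMM and 3 and 2 with totals. Medians were -0.58 and -0.64 with TMM and -0.20 and -0.25 with totals, and 33 and 39 falls became 17 and 22 between the scalings. Cox7a1, the muscle and heart isoform of a complex IV subunit, fell most, from 159, 111, 144 and 136 CPM to between 22.7 and 45.5 CPM, median 33.3 (-2.04 ± 0.16, -1.67 with totals). Cycs, cytochrome c, fell (-1.08 ± 0.07) and Sdhb of complex II (-1.13 ± 0.10). Of 13 mitochondrially encoded genes 10 were tested, and all 10 fell with TMM and 9 with totals.

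Of 17 regulators of these genes 12 were lower and 0 higher with TMM, and 6 lower and 5 higher with totals. Perm1 stood at 222, 118, 216 and 240.3 CPM in sham and between 8.45 and 24.1 CPM, median 13.9, in SCI (-3.77 ± 0.24, -3.41 with totals), with sham library 2 the lowest of its group and still far above every SCI library. Esrra, the orphan receptor through which it acts, fell (-0.98 ± 0.07) and Ppargc1a, which encodes PGC-1 alpha, too (-0.72 ± 0.11, -0.33 with totals). Ppara, a fatty acid sensor, fell (-1.33 ± 0.29). The full estrogen-related receptor element TNAAGGTCA was on either strand of 3 of 100 RefSeq promoters of nuclear respiratory and citric acid cycle genes and of 1.28% of all promoters.

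In the citric acid cycle and at its pyruvate entry 25 of 26 genes were lower with TMM and 17 with totals. Idh2, the mitochondrial isocitrate dehydrogenase that makes NADPH, fell furthest, from 293, 113, 252 and 391 CPM to between 34.4 and 49.4 CPM, median 40.1 (-2.70 ± 0.22, -2.32 with totals), below the lowest sham library in all 6. Pdk4, the kinase that closes the entry of pyruvate, was the single rise, from 191, 201, 215 and 277 to between 378 and 1114 CPM, median 546 (1.63 ± 0.35). Ketone and lactate handling had the lowest median of the metabolic lists, -1.71 with TMM and -1.38 with totals, with 8 of 9 genes lower (6 with totals). Oxct1, which activates ketone bodies for oxidation, fell from 398, 256, 341 and 401 to between 67.7 and 96.7 CPM, median 77.8 (-2.15 ± 0.14), and Slc16a3, the exporter of lactate (-1.84 ± 0.32). Ldhb, of the heart type lactate dehydrogenase, fell (-2.16 ± 0.33), and its groups overlapped through sham library 2.

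Fatty acid genes fell in 18 of 25 and rose in 2 with TMM but fell in 5 and rose in 6 with totals, and 1 rose without sham library 1 or 2 or SCI library 2. The list median of -0.44 with TMM was -0.55 without sham library 2 and -0.32 without sham library 4. The deeper falls were called under both, as for Fabp3, the muscle fatty acid binding protein (-2.08 ± 0.28), Lpl, the lipase at the capillary wall (-1.98 ± 0.23), and Acaa2, a thiolase of beta-oxidation (-1.39 ± 0.18). Sham library 2 was the lowest of sham for Fabp3, Lpl and Acaa2, and with totals the groups of each overlapped. Ucp3, a mitochondrial carrier that fasting induces, rose from 61, 41.9, 76.8 and 56.9 CPM to between 135 and 231 CPM, median 144 (1.42 ± 0.28). Branched-chain amino acid breakdown had 12 of 19 lower and 2 higher with TMM and 5 and 7 with totals, with Ppm1k, the phosphatase that activates the pathway, down (-1.24 ± 0.15) and its opposing kinase Bckdk (-0.83 ± 0.10). Over all genes 23.1% were lower and 21.5% higher with TMM, and 9.11% and 47.5% with totals.

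Glycolysis fell in 14 of 17 genes with TMM and 12 with totals, and 0 rose under either. Besides Eno3 the largest falls were those of Pfkfb1, which sets the level of fructose 2,6-bisphosphate (-1.68 ± 0.23), and Tpi1, triose phosphate isomerase (-1.58 ± 0.24). Of 15 glycogen genes 8 were lower and 2 higher with TMM (1 higher without sham library 2 or SCI library 5), and 6 lower and 4 higher with totals, with Gbe1, the branching enzyme, up by 1.23 ± 0.17 and Phkg1, the catalytic subunit of phosphorylase kinase, down (-1.20 ± 0.21). Over all genes 23.1% were lower and 21.5% higher with TMM, and 9.11% and 47.5% with totals. Of 13 creatine and adenine nucleotide genes 12 fell (10 with totals). The exception was Ampd3, the AMP deaminase of red cells and atrophying muscle, which rose from 13.4, 7.19, 11.6 and 18.2 CPM to between 46.8 and 152 CPM, median 92.1 (2.88 ± 0.25, adjusted p = 9.5e-11 by edgeR), while its adult muscle isoform Ampd1 fell (-0.92 ± 0.24). Ampd3 overlaps Rnf141 on the opposite strand.

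Of 12 myosin heavy chains 7 were lower and 1 higher with TMM (6 and 1 with totals). Myh2, of the oxidative fast fibre, stood at 2259, 585, 2283 and 4149 CPM in sham and between 84.1 and 437 CPM, median 303, in SCI (-3.03 ± 0.42, adjusted p = 5.9e-07 by edgeR), and sham library 2 lay closest to SCI. Myh1, of the intermediate fast fibre, was not called (0.04 ± 0.29, adjusted p = 0.923 by edgeR). Per exonic base, Myh2 made up 2.19% ± 1.62 of 4 adult chains in sham and 0.652% ± 0.445 in SCI (exact p = 0.0381, 0.0762 adjusted), Myh1 3.26% ± 1.48 and 8.15% ± 5.44 (exact p = 0.0857), and Myh4 94.2% ± 3.29 and 91.0% ± 6.04 (exact p = 0.410). None of these 3 shares passed after adjustment over 6. Myh7, the slow chain, was at 577, 89.7, 548 and 762 CPM in sham and between 10.6 and 241 CPM, median 102, in SCI (-2.13 ± 0.52), and its groups overlapped through sham library 2. Myh14, a non-muscle myosin, was the single heavy chain that rose, from 71.9, 74, 93.2 and 73.9 to between 231 and 426 CPM, median 302 (2.01 ± 0.13). The embryonic Myh3 and neonatal Myh8 were not called (-0.78 ± 0.60 and -0.0028 ± 0.29).

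Slow fibre partners fell in 8 of 11 genes and fast fibre partners in 15 of 17 with TMM, and in 6 and 14 with totals. Myl3 and Myl2, slow light chains, fell (-3.16 ± 0.43 and -3.08 ± 0.46), and both overlapped through sham library 2, at 191, 27.5, 149 and 244 CPM for Myl3 in sham libraries 1 to 4. Of the fast genes Myoz3, a Z-disc protein that binds calcineurin, fell (-2.14 ± 0.33) and Myl1, a fast light chain (-1.60 ± 0.19). Actc1, the cardiac actin, was also counted in the fast fibre list and had its largest fall. It stood at 334, 217, 212 and 65 in sham and between 3.18 and 6.9 CPM, median 5.81, in SCI, below the lowest sham library in all 6.

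Calcium handling genes were lower in 16 of 25 and higher in 4 with TMM (10 and 6 with totals). Sln stood at 1.59, 1.25, 1.66 and 0.726 CPM in sham and between 39.3 and 115 CPM, median 64.7, in SCI. Cacng1 and Ryr3, the release channel of developing muscle (1.63 ± 0.42), rose, while Casq1, which stores calcium (-1.36 ± 0.21), Jph2 and Pvalb, the soluble calcium buffer of fast fibres (-1.12 ± 0.16), fell. Of 22 ion channel and pump genes 16 were lower and 4 higher with TMM, and 6 and 5 with totals. Kcnq5, a slow voltage-gated potassium channel, rose from 8.8, 14, 15.6 and 16.5 to between 50.1 and 116 CPM, median 63.5 (2.34 ± 0.22), and Panx1, which forms large-pore membrane channels, from 8.48, 11.8, 6.83 and 8.53 to between 14.7 and 64.4 CPM, median 30.3 (1.99 ± 0.32). Other potassium channels fell, Kcnc1, of fast repolarisation, from 88.5, 83.3, 84.8 and 94 to between 6.76 and 21.2 CPM, median 11.7 (-2.76 ± 0.25, adjusted p = 1.2e-10 by edgeR) and Kcna7 (-2.42 ± 0.20), as did Scn4b, a partner of the sodium channel (-1.49 ± 0.18). In Kcnq5, Panx1 and Kcnc1 the groups did not overlap.

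Intermediate filament genes rose in 5 of 11 and fell in 3 (8 and 1 with totals), against 21.5% and 23.1% of all genes (47.5% and 9.11% with totals). Krt18, which pairs with Krt8, stood at 0.318, 0.456, 0.175 and 0.272 CPM in sham and between 14.5 and 43.5 CPM, median 21, in SCI, and Krt8 at 0.424, 0.228, 0.876 and 0 and between 2.79 and 12.5 CPM, median 5.19 (3.97 ± 0.86). Des, the desmin of mature fibres, rose by 0.56 ± 0.09, against the fall of most sarcomere genes, and Lmna, the nuclear lamin, by 0.85 ± 0.17. Of 17 actin and tubulin genes 8 rose and 5 fell (9 and 2 with totals), against 21.5% and 23.1% of all genes (47.5% and 9.11% with totals). Tubb6, a beta-tubulin of remodelling fibres, rose from 19.9, 15.6, 21 and 20.0 to between 44.8 and 150.1 CPM, median 85.4 (2.22 ± 0.26), Tubb5 by 1.46 ± 0.18 and Tubb4b by 1.15 ± 0.20, while Tuba8, the alpha-tubulin of striated muscle, fell (-1.20 ± 0.13). In the dystrophin complex 10 of 17 fell and 2 rose with TMM (5 and 7 with totals), with Sgcd, a sarcoglycan, lower (-1.60 ± 0.27) and Dysf, which reseals membrane, higher by 0.56 ± 0.09, while Dmd itself was not called with TMM (0.15 ± 0.09) and was called higher with totals (0.53).

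Metallothioneins, small cysteine-rich proteins that bind zinc and copper, rose without overlap of groups. Mt1 stood at 3.29, 7.53, 4.9 and 6.62 CPM in sham and between 19.6 and 85.5 CPM, median 43.8, in SCI (3.14 ± 0.51), Mt2 at 2.12, 2.62, 2.45 and 1.36 and between 24.9 and 131 CPM, median 58.3 (5.08 ± 0.66) and Mt3, the brain form, at 0.53, 1.03, 0.876 and 0.272 and between 1.39 and 7.54 CPM, median 3.04 (2.39 ± 0.62). SCI libraries 1 and 5 were the highest for Mt1 and Mt2 and library 6 the lowest. The zinc importer Slc39a14 rose by 0.73 ± 0.20, and Mtf1, the zinc-sensing factor that induces metallothioneins, was not called (-0.17 ± 0.09). The core of its metal response element, TGCNCNC, was on either strand of all 3 metallothionein promoters, with 3 matches in Mt1, 6 in Mt2 and 3 in Mt3, but 51.0% of all RefSeq promoters held it and 7.10% held it at least 3 times.

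Polyamine enzymes parted, with 2 of 13 higher and 5 lower (7 and 3 with totals). For this and the next 3 lists, 21.5% of all genes were higher and 23.1% lower (47.5% and 9.11% with totals). Odc1, the entry enzyme, rose from 156, 230.3, 159 and 144 CPM to between 408 and 791 CPM, median 436 (1.55 ± 0.21) and Srm, spermidine synthase, by 1.06 ± 0.18, while Amd1, which feeds it, fell from 1713, 2261, 2122 and 1326 to between 134 and 1137 CPM, median 554 and Smox, an oxidase of spermine that maintains muscle, from 516, 533, 669.8 and 431 to between 37.5 and 437 CPM, median 169 (-1.42 ± 0.38). SCI library 3 held the most Amd1 and library 2 the least. Targets of the antioxidant factor NRF2 were higher in 16 of 27 and lower in 3 (21 and 0 with totals), among them Txn1 (1.28 ± 0.18), Pgd (1.18 ± 0.19) and Nqo1 (1.13 ± 0.22), and the falls numbered 1 without sham library 1. The ATF4 amino acid stress response did not move together, with 4 of 21 higher and 4 lower (8 and 2 with totals) and a median of -0.07, and Atf5 was lower (-0.68) with TMM and uncalled with totals (-0.27). Glucocorticoid targets rose in 7 of 14 and fell in 1 (8 and 0 with totals), with Glul, glutamine synthetase, up by 1.13 ± 0.27 and Tsc22d3 by 1.12 ± 0.19. Fkbp5, a close marker of receptor activity, was not called (0.27 ± 0.33, adjusted p = 0.533 by edgeR).

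Secreted factors of muscle fell in 8 of 14 and rose in 2 (7 and 2 with totals). Vegfa, the growth factor of capillaries, fell from 209.7, 158, 212 and 223 CPM to between 77.2 and 93.7 CPM, median 78.5 (-1.28 ± 0.10, -0.89 with totals), Vegfb (-1.08 ± 0.10) and Fndc5, the irisin precursor (-1.60 ± 0.22). Ostn was at 50.1, 44.5, 45.9 and 22.7 in sham and between 2.19 and 6.83 CPM, median 3.28, in SCI. Angptl4, a lipase inhibitor that fasting induces, rose from 1.7, 0.456, 1.75 and 1.27 to between 6.77 and 19.3 CPM, median 12.1 (3.27 ± 0.51). The rise of Metrnl (1.15 ± 0.42), a factor that exercise and cold induce, was not called when sham library 2 or SCI library 1 or 2 was left out (adjusted p = 0.0761, 0.0631 and 0.105 by edgeR).

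Matrix genes fell, 20 of 25 fibrillar and interstitial genes with TMM and 12 with totals, and 13 of 15 basement membrane genes and 10 with totals. Fbn1, the fibrillin of microfibrils, fell from 47.8, 27.8, 27.5 and 23.7 CPM to between 4.64 and 10.9 CPM, median 8.13 (-2.02 ± 0.22), Col1a1, the main fibrillar collagen chain (-1.45 ± 0.26) and Lama4, the laminin of vessels (-1.26 ± 0.17). Timp1, a protease inhibitor, rose from 0.212, 0.342, 0.35 and 0.0907 to between 0.557 and 4.3 CPM, median 1.51 (2.82 ± 0.72). The rise of Lama5 (0.30), the single one in its list, was lost when sham library 1 or 2 was left out (adjusted p = 0.0718 and 0.0929).

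Markers of tendon and fat fell beside the matrix. The 8 tendon markers summed to 58.3, 104, 135 and 59.3 CPM in sham libraries 1 to 4 and to between 14.6 and 49.4 in SCI, without overlap, and 7 of 8 were lower with TMM and 6 with totals. Tnmd, tenomodulin, fell (-3.06 ± 0.67), Fmod, which binds tendon collagen, from 20.4, 51.7, 54 and 23.4 to between 2.13 and 14.9 CPM, median 7.23 (-2.27 ± 0.54) and Thbs4 (-1.84 ± 0.39). Scx, the transcription factor of tendon, was higher (0.84 ± 0.22), and it lies within Bop1, a ribosome biogenesis gene that rose by 0.82 ± 0.13, on the opposite strand. Of 8 adipocyte markers 7 fell (6 with totals), with Adipoq at 15.8, 4.11, 6.04 and 3.18 in sham and between 0.516 and 2.72 CPM, median 1.28, in SCI (-2.37 ± 0.59), while Fabp4, which endothelium also makes, was not called (-0.32 ± 0.15) except without sham library 2 (adjusted p = 0.0191). The adipocyte sum was 96.2 to 245 CPM in sham, highest in library 1, and 77.8 to 105 in SCI. Most of it was Fabp4, with means of 98.8 CPM in sham and 79.1 in SCI. The adipocyte median of -2.23 with TMM was -1.64 without sham library 1, and the tendon median of -2.23 was -1.90 without sham library 3. How much tendon or fat each piece of muscle held, and its part in the fall of the matrix genes, was not tested.

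Markers of fibro-adipogenic progenitors were lower in 8 of 10 with TMM and 5 with totals, with sums of 576 to 1118 CPM in sham and 398 to 719 in SCI, and their median of -0.93 with TMM was -0.60 without sham library 1. Endothelial markers were lower in 8 of 10 with TMM and 2 with totals, with sums of 279 to 373 and 191 to 257 CPM. Pecam1 was not called (-0.24 ± 0.12), and Cldn5, a junction protein, rose by 0.90 ± 0.24. Schwann cell markers summed to 112, 468, 126 and 57.5 CPM in sham libraries 1 to 4 and to 48.2 to 102 in SCI, and the 4 of 9 called lower were uncalled without sham library 2. Of 10 macrophage markers Cd68 rose (1.74 ± 0.46) and the rest, Adgre1 among them (-0.04 ± 0.46), were not called. Lymphocyte markers were near 0, with none of 9 above the count filter. Of 6 neutrophil markers 3 were tested, and Ly6g had 0 counts in all 10 libraries. The 3 summed to 1.17, 1.37, 6.13 and 1.72 CPM in sham libraries 1 to 4 and to 0.541 to 1.13 in SCI. Of these 1 was lower with TMM, not without sham library 3, and 0 with totals.

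**Figure D5:**
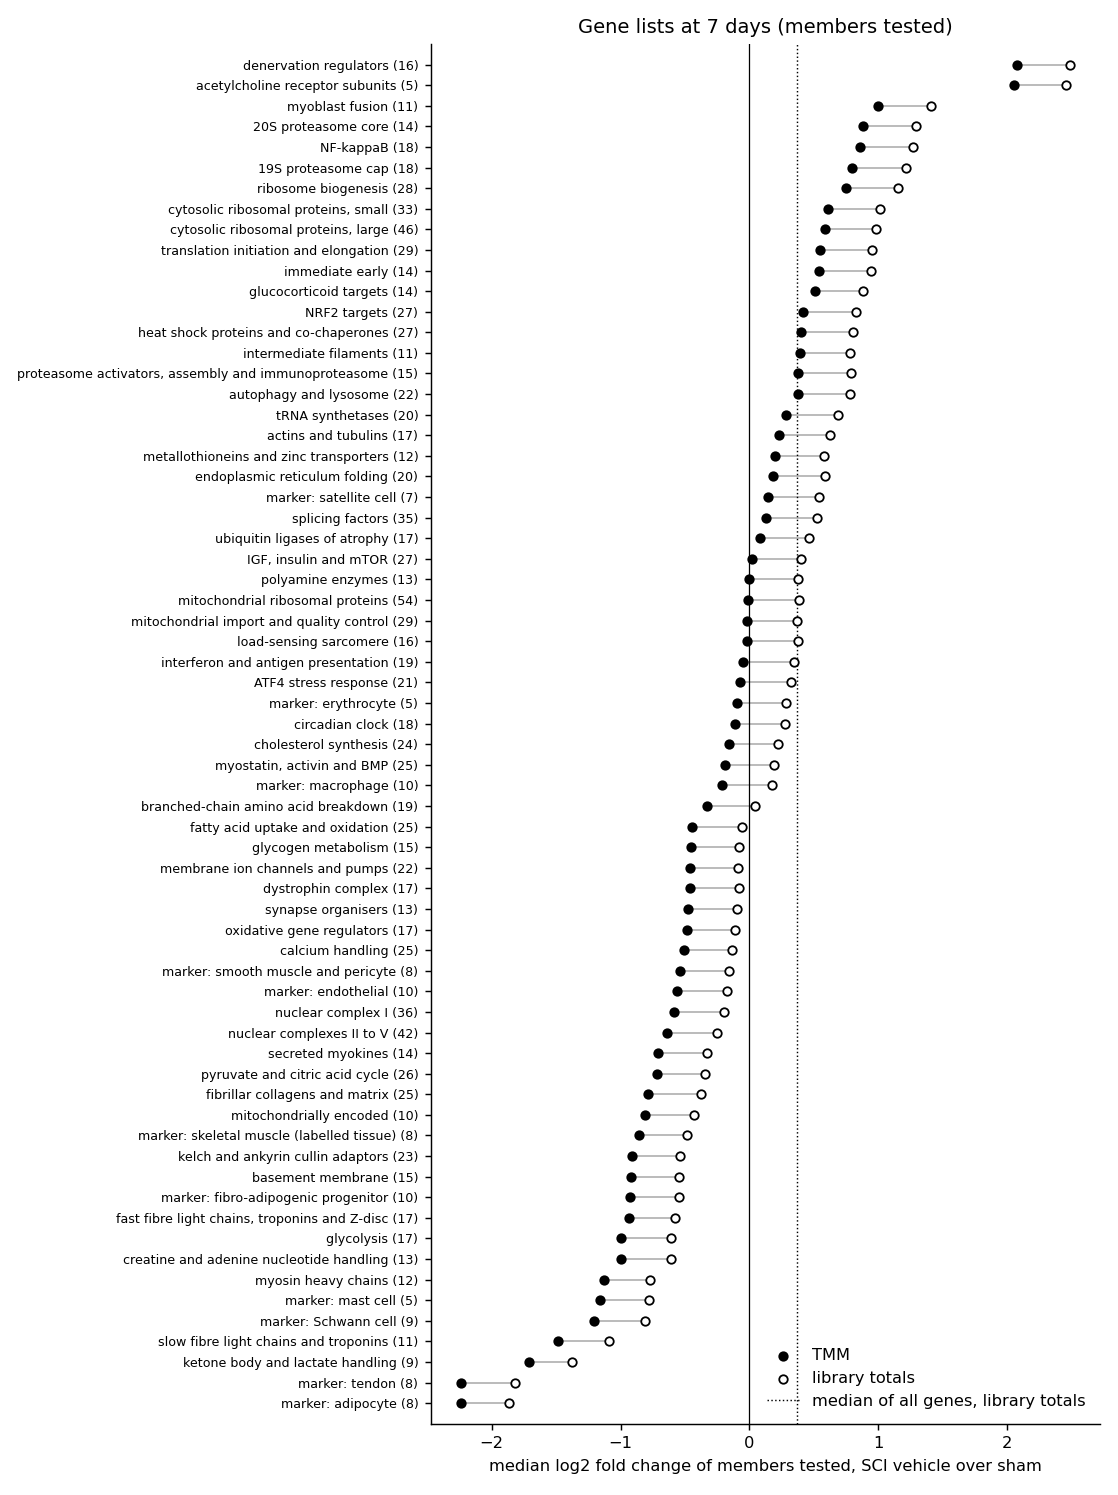
Median log2 fold change of the tested members of each list of at least 5 genes, SCI vehicle over sham, with TMM (filled) and library totals (open); the number of members tested is in brackets, and the dotted line marks the median of all genes with totals, that with TMM being -0.02. Lists from the denervation regulators at the top to the insulin-like growth factor pathway lie above 0 under both scalings, and those from fatty acid oxidation down lie below 0 under both.

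The 6 SCI libraries lay at different distances from sham by measures that all come from the same counts, and the reason was not tested. On the first principal component of log2 CPM over the 10 libraries, which carried 54.6% of the variance, sham libraries scored -55.9 to -50.2 and SCI libraries 1 to 6 scored 47.5, 63.2, 17.1, 15.2, 42.7 and 23.7. SCI libraries 1, 2 and 5 had 16%, 14% and 16.2% of counts in the 10 most counted genes and libraries 3, 4 and 6 had 23.5%, 22% and 20.8%. For Akt1 the same 3 held 313, 317 and 256 CPM against 127 to 175 in the others, and for Rpl3 at least 267 against at most 197. Some of the deepest falls did not follow this split, as Idh2 lay between 34.4 and 49.4 and Actc1 between 3.18 and 6.9 in all 6. Without SCI library 2, which scored highest, 3066 genes were called higher and 3006 lower, and without library 4, which scored lowest, 3402 and 3341.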

How the data were processed

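Gene counts per library were used as deposited by the authors. Per the submitters' processing notes, FastQC, Trim Galore, cutadapt and STAR were used with the mm10 build; which tool counted the reads, with which strand setting and gene models, is not given in the sources used here. Per the labels' protocols, RNA came from both heads of the muscle and libraries were made with a NEBNext Ultra kit, which marks no strand. Gene names, lengths and coordinates came from GENCODE M21, promoters from RefSeq.

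All 32 libraries were fitted by group with edgeR 4.0.16 quasi-likelihood (R 4.3.3) after filterByExpr (minimum count 10, total 15). SCI vehicle was tested against sham at 7 days with Benjamini-Hochberg adjustment over 14955 genes, with TMM and with library totals. SE is the absolute log2 fold change over the square root of F. Permutation tests of shares were exact and two-sided. Paralogue and myosin shares were of genes chosen with earlier results known, so their p-values are descriptive. At these library sizes 3 counts correspond to 0.230 to 0.302 CPM. Counts were also simulated from sham means, with 200 of 14955 genes changed, up and down equally, and no shift in composition. Of genes changed by 0.5, 1, 2 and 3 (log2), 36%, 80%, 100% and 100% were recovered, and 6.51% of calls were false. The data held far more changes and a shift in composition, so these rates do not carry over to the calls given here.

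Members and gene lists were chosen with earlier results of these data known. Text names the 5 largest non-overlapping rises and falls in each of 3 CPM bands, the 10 most counted genes, the 3 most counted genes that turned, and, per list, the 3 largest called changes each way at 5 CPM or more or any member of lists of 15 or fewer; not every such gene is named, and a few are not reported here. Other members, mostly uncalled ones of longer lists, were chosen after their values were seen. Alternatives were DESeq2 size factors, DESeq2 1.42.0, limma 3.58.1 voom, other count filters, fewer libraries, a replicate block and leaving out each library.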

Additional observations from a re-analysis of the deposited data

Results flagged for a closer look

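Of 450 groups of 4 or 6 libraries tested for a single library far from the rest, 25 held one, and chance flags about 1 in 20. SCI library 2 was the highest of its group, with a wide gap, in 11 of them. These were Trim63 (1394 CPM, the others 541 to 791), Fbxo32 (2098 against 1076 to 1389), Gadd45a (692 against 172 to 278), Runx1 (87.7 against 22.9 to 46.8), Sik1 (183 against 60.8 to 103), Myf6 (406 against 178 to 256), Eef1a1 (685 against 379 to 464), Kcnq5 (116 against 50.1 to 71.3), Sdc4 (63.2 against 27.7 to 39.6), Gdf5 (10.3 against 2.06 to 3.92) and Myl2 (30.1 against 0.808 to 11). All but Myl2 of these 11 genes were higher in SCI than in sham.

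Other SCI libraries stood apart in single genes. SCI library 4 held 25.5 CPM of Ppargc1a (others 16.2 to 18.8). SCI library 3 held 231 CPM of Ucp3 (135 to 160.1), and SCI library 6 held 791 of Odc1 (408 to 550.3) and the least Foxo3, 24.9 (32 to 35.5).

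In sham, library 2 held 304 CPM of Trim63 (184 to 199.6) and 78.9 of Lmna (66.7 to 68.1). Library 1 held 122 of Irs1 (66.8 to 75.9) and 35.6 of Utrn (22.8 to 24.1), and the least Eef2k, 91.1 (112 to 113), and Psma7, 63.1 (74.4 to 75.6). Library 3 held 93.2 of Myh14 (71.9 to 74) and library 4 held 27.7 of Ramp1 (18.7 to 19.2). For Cd101 (0.0876 CPM in library 3) and Chrng (0.106 in library 1) the standing apart is a single count where the other sham libraries had 0.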

How the results depend on the processing

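Counts of calls depended most on the scaling. With library totals 7107 genes were called higher and 1363 lower (1828 and 480 beyond 2-fold), with totals less the 10 most counted genes 5521 and 1965 (1237 and 630), and with totals without ribosomal RNA genes, an alternative chosen after seeing the data, 7062 and 1385 (1803 and 485). Requiring at least 5 CPM in 4 libraries left 415 and 536 beyond 2-fold, since fewer genes are tested. Pink1 and Cnbp turned to 0.20 and 0.16 with totals, to 0.0481 and 0.013 less the 10 most counted genes and to 0.20 and 0.16 without ribosomal RNA genes. Leaving out each library gave 2887 to 3402 higher and 3006 to 3341 lower (682 to 843 and 864 to 1079 beyond 2-fold). The shares of the 10 most counted and of mitochondrially encoded genes then differed between the groups (SCI minus sham) from -9.19 to -7.29 and from -2.16 to -1.42 percentage points. With only the 10 libraries in the fit 2857 genes were called higher and 2773 lower (743 and 921 beyond 2-fold). DESeq2 called 3376 higher and 3407 lower, and 6582 of the 6669 calls with TMM were shared in direction. The labels number replicates in both groups, but same-numbered libraries did not deviate together (r of -0.02, -0.01, -0.06 and 0.02), so the replicate block (3162 higher, 3392 lower, 752 and 1025 beyond 2-fold) rests on a number alone. Genes under about 1 CPM rest on a few counts per library.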
